A study of Homo sapiens with 8 samples.

Results

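The CTCF peaks described here are those at the 3′ ends of protein-coding genes in HT1080 cells, a human fibrosarcoma line of connective tissue origin that the labels mark as positive for the ras oncogene. Of the 47470 CTCF peaks listed for control cells, 1178 had a centre within 1 kb of the 3′ end of a protein-coding gene record and more than 1 kb from the start of every protein-coding transcript (hg19 coordinates, GENCODE v44lift37). CTCF was mapped by chromatin immunoprecipitation and sequencing (ChIP-seq) in untreated cells, called control, and in cells given 3 µM CBL0137, a curaxin, for 6 h. Each condition had 2 biological replicates of ChIP and 2 of input DNA, 8 libraries in all, and every library came from the same line. The authors' peak caller combined the replicates of a condition, so that each condition has a single list of peaks, in which every peak carries its enrichment in the ChIP over the input, as a fold. A control peak was called kept if any peak of CBL0137-treated cells overlapped it and lost if none did. Because no value per replicate was available, no spread between replicates and no test over samples could be given. The 95% intervals below are Wilson intervals, which cover counting error alone, and the read depth behind a peak is not recorded in the lists.

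CTCF is a zinc-finger protein that binds a long, directional DNA motif. Bound CTCF can halt cohesin as it extrudes a chromatin loop, and pairs of sites with motifs that face each other often form loop anchors. At the 3′ end of a gene the transcript is cleaved and polyadenylated, while RNA polymerase II continues for some distance before it stops. CTCF close to such ends can lie in the last exon, in DNA that the polymerase still crosses, or between neighbouring genes, and CTCF bound near polyadenylation sites has been linked to the choice among them. Curaxins are small molecules that bind DNA and loosen its contact with histones, and the study asked whether CTCF leaves its sites when they are present.

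To show what DNA lies under these peaks, the 400 bp around each centre were searched on both strands for the 12-base core of the CTCF consensus, 4 positions of which allow either of 2 bases. Matches of at most 1 mismatch lay in 656 of the 1178 peaks at 3′ ends (55.7%, 52.8% to 58.5%), against 49.0% of all control peaks, and in 4.58% of windows 10 kb away from the same peaks. The motif of the labelled protein was thus more frequent under these peaks than in DNA beside them. Among control peaks 1 to 10 kb from a 3′ end and away from starts, 54.3% (53.1% to 55.5%) held a match. That share is inside the interval at 3′ ends, and it was 35.3% within 1 kb of a protein-coding start. The strongest kept peaks, the strongest lost peaks and the weakest kept peaks that held a match are shown, since these are the ends of the range described below. Each line gives 30 bases of the GRCh37 reference, 5′ to 3′ on the strand of the match, with the 12 bases of the core in capitals.
Kept, strong: FAM89B (chr11:65341725-65341754, plus strand): cgcgctctgCCAGCAGGTGGCgcccgagac
Kept, strong: ZNF341 (chr20:32380108-32380137, plus strand): ccttctttgCCCCTAGGTGGCagcactccc
Kept, strong: SMIM24 (chr19:3473172-3473201, minus strand): aggacttctCCACTAGGGGGCgtttggaaa
Kept, strong: MRGPRG (chr11:3238707-3238736, plus strand): gagcctcagCCAGCAGGTGGCatggacggc
Kept, strong: RCC2 (chr1:17732827-17732856, minus strand): gccaactgcCCACCAGAGGGCaccaggagg
Kept, strong: PPP1R3E (chr14:23764374-23764403, minus strand): cttcgccctCCAGTAGAGGGCgcactcttg
Lost, strong: CHST6 (chr16:75505838-75505867, plus strand): tgagatcatTCAGTAGAGGGCgctgggaga
Lost, strong: ASPN (chr9:95217720-95217749, minus strand): ggtctctacACACTAGATGGCagtaacacc
Lost, strong: RGS7BP (chr5:63908369-63908398, minus strand): gctcagcttTCAGTAGGTGGCagtattgcc
Lost, strong: PLA2G2A (chr1:20301308-20301337, plus strand): ccccagggtCCAGCTGGTGGCcagcattat
Kept, weak: LRRC3 (chr21:45881501-45881530, plus strand): agggcccggCCAGCAGAGGGCcattttgta
Kept, weak: TRAF2 (chr9:139820779-139820808, minus strand): ttgctctggCCAGCAGGAGGCccttctcct
The matches of FAM89B, SMIM24, MRGPRG, RCC2, PPP1R3E and LRRC3 had 0 mismatches, and the others in these lines had 1. All 4 lost peaks shown had 1 mismatch. The matches of MRGPRG and PLA2G2A lay much farther from the peak centre than the others shown. That of MRGPRG began at 3238716 in a peak of 3238351 to 3238800, and that of PLA2G2A at 20301317 in a peak of 20301301 to 20301650. Whether CTCF bound at these matches was not tested.

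Peaks were denser at 3′ ends than over the rest of the genome. Among bases more than 1 kb from a protein-coding start, the windows around 3′ ends held 33.7 control peaks per Mb, against 15.1 per Mb elsewhere, a ratio of 2.23, and these windows made up 1.25% of such bases. The surrounding DNA shared most of this density. It was 27.5 peaks per Mb from 1 to 5 kb inside the gene, 30.6 in the last 1 kb of the gene, 36.9 in the first 1 kb downstream and 30.3 from 1 to 5 kb downstream. At finer resolution the last 250 bp of the gene held 110 control peaks (24.6 per Mb) and the first 250 bp beyond the end held 200 (44.1 per Mb), but the profile was uneven, as the 250 bp before these, up to 500 bp inside the gene, held 169 (38.6 per Mb). The list of CBL0137-treated cells had 30.4, 20.3 and 32.9 peaks per Mb in these bins, from 500 bp inside to 250 bp beyond the end, an order like that of control cells at a lower level. By the same rule, 915 peaks of treated cells lay at 3′ ends. Of these, 95 had no overlap with a control peak (10.4%, 8.57% to 12.5%), where 8.07% of all treated peaks had none.

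**Figure D1:**
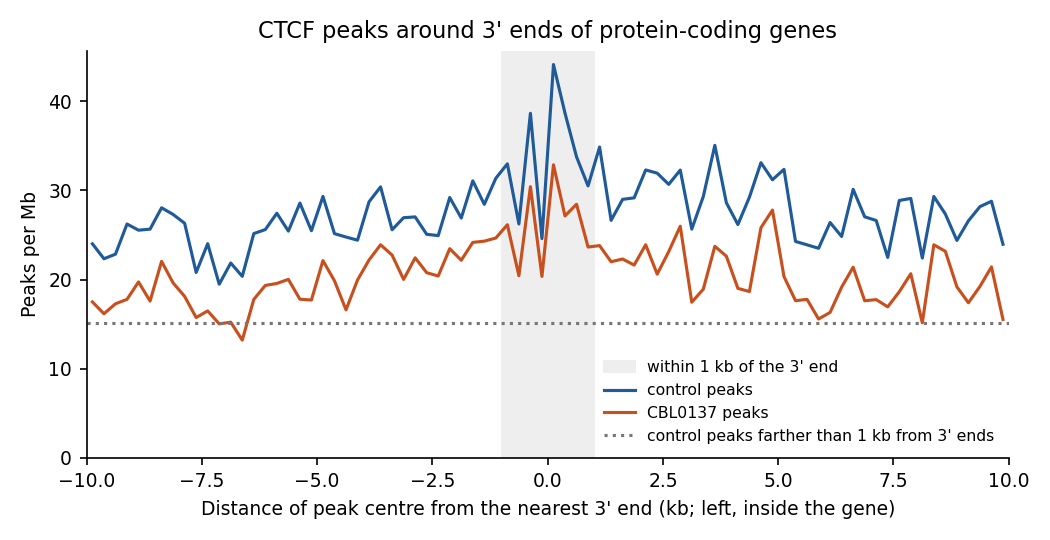
Peaks per Mb (vertical axis) in bins of 250 bp by distance of the peak centre from the nearest 3′ end in kb (horizontal axis, negative inside the gene), for control cells and CBL0137-treated cells, over bases more than 1 kb from a protein-coding start. The control line reaches 44.1 peaks per Mb just beyond the 3′ end, the treated line lies below it in that bin at 32.9, and the dotted line marks 15.1 control peaks per Mb over bases farther than 1 kb from 3′ ends.

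Of the 1178 peaks at 3′ ends, 815 were kept and 363 were lost, a lost share of 30.8% (28.2% to 33.5%). Over all control peaks the lost share was 42.9%. Under the overlap rule of the study, by which more than 50% of the larger peak must be shared, 457 peaks at 3′ ends were lost (38.8%, 36.1% to 41.6%), against 50.7% of all control peaks. The authors' list of sites higher in control cells overlapped 472 of the peaks at 3′ ends (40.1%, 37.3% to 42.9%), against 51.2% of all control peaks. Their list of sites higher in treated cells overlapped 30 (2.55%, 1.79% to 3.61%), against 2.41% of all control peaks, which is within the counting error. Among the lost peaks at 3′ ends, 259 lay at a site higher in control cells (71.3%), and among the kept ones 213 did (26.1%). Over all control peaks, 78.4% of the lost and 30.8% of the kept lay at such a site. Both kinds of list rest on the same libraries and are not independent.

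A lower lost share was shared with neighbouring DNA. Control peaks 1 to 10 kb from a 3′ end, away from starts, were lost in 32.2% of cases (31.1% to 33.3%, n = 7042), which is inside the interval of the peaks at 3′ ends. Control peaks within 1 kb of a protein-coding start were lost in 30.0% of cases (28.7% to 31.4%, n = 4646), whereas peaks in gene bodies, more than 1 kb from starts and from 3′ ends, were lost in 44.01% of cases (43.3% to 44.7%, n = 21063). Peaks at 3′ ends differed from these sets by -1.38, 0.77 and -13.2 percentage points, and by -0.51, 3.96 and -5.89 points when peaks of equal control fold enrichment were compared. These are differences between parts of pooled lists, and no test of them could be made over samples. Peaks at 3′ ends were stronger and wider and lay in DNA richer in GC than control peaks at large. The median width was 350 bp at 3′ ends, against 300 bp for all control peaks and for each of these sets. Width was not equalised in any comparison. Their median fold enrichment over control input was 32.4 (quartiles 22.1 and 42.3), against 28.7 for all control peaks, and their median GC content over 500 bp was 52.0%, against 45.6%. The surrounding 100 kb had a median GC content of 48.4%, against 42.4%. The like sets shared part of this. Peaks 1 to 10 kb from a 3′ end had a median fold of 31.4 and GC contents of 49.4% and 46.3%. For peaks within 1 kb of a start these were 30.2, 60.8% and 45.2%. Sites higher in control cells overlapped 43.3% and 35.1% of these 2 sets, against 40.1% at 3′ ends. The lost share of peaks at 3′ ends was 12.4 points below that of all other control peaks (-12.4). This difference was -6.73 points at equal fold enrichment and -5.87 points at equal GC content of the site. It was -3.32 points at equal GC content of the surrounding 100 kb. With fold enrichment and GC content of the site equal together, it was -3.50 points. For peaks 1 to 10 kb from a 3′ end, the same differences from all other control peaks were -12.6, -7.64, -8.08, -5.48 and -5.49 points, in this order. For peaks within 1 kb of a start they were -14.2, -12.2, 5.84, -8.64 and -0.90 points.

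Strength in control cells went with fate at 3′ ends. The median fold enrichment over control input was 37.5 (28.9 to 45.5) for the kept peaks and 20.1 (13.8 to 27.4) for the lost ones, where brackets give quartiles. The whole control list was ordered by fold and cut into 10 equal groups. In the weakest group, 85 of 93 peaks at 3′ ends were lost (91.4%, 83.9% to 95.6%), and in the strongest 5 of 165 (3.03%, 1.30% to 6.90%). The corresponding shares of other control peaks were 88.2% and 7.77%. In 9 of the 10 groups the share was lower at 3′ ends, with the widest gap in the group with a fold of 17.8 to 21.6, where it was 50.5% (40.7% to 60.3%) against 66.0%. Peaks at 3′ ends were unevenly spread over the groups, with 485 in the 3 strongest and 275 in the 3 weakest. Kept and lost rest on the threshold of the treated list, and the part of that threshold in the difference by strength was not tested.

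**Figure D2:**
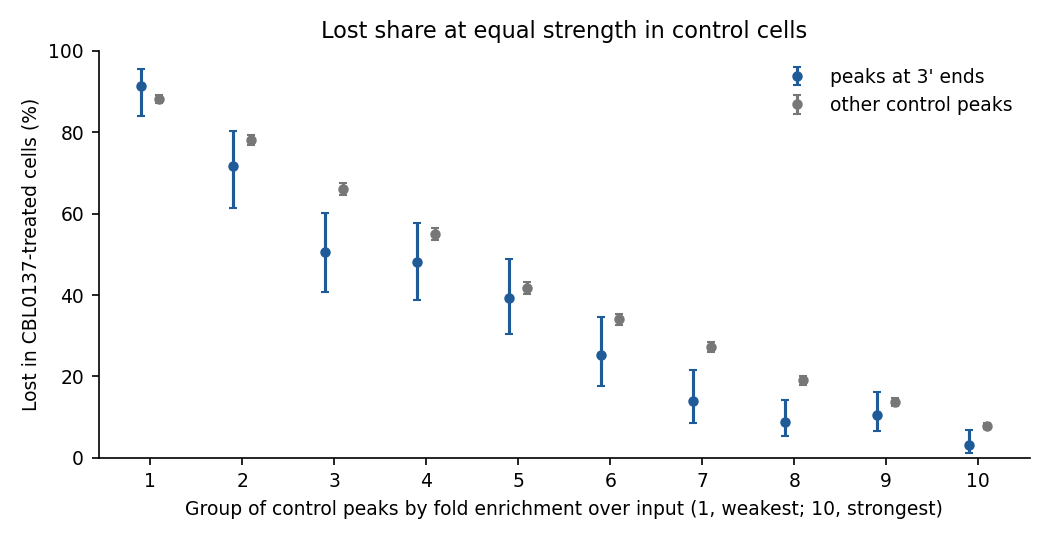
Lost share in percent (vertical axis) of peaks at 3′ ends and of other control peaks in 10 groups of control peaks ordered by fold enrichment over input (horizontal axis); bars are Wilson 95% intervals. The share at 3′ ends falls from 91.4% in the weakest group to 3.03% in the strongest and lies below that of other peaks in 9 of the 10 groups.

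Width in control cells also went with fate. Of the 274 peaks at 3′ ends that were 100 to 200 bp wide, 197 were lost (71.9%, 66.3% to 76.9%). The share was 44.5% (39.0% to 50.1%) for the 299 peaks of 250 to 300 bp and 8.96% (6.38% to 12.4%) for the 346 peaks of 350 to 400 bp. Among the 259 wider peaks, 2 were lost (0.772%, 0.212% to 2.77%). These shares depend on how overlap is judged. By the study's stricter overlap rule, the 4 classes lost 79.2%, 50.5%, 17.1% and 11.6%, in order of width. Sites higher in control cells overlapped 37.2%, 55.9%, 37.9% and 27.8% of them, which is not a steady fall. The median fold enrichment in these 4 classes was 17.9, 28.2, 39.1 and 38.4. The parts of strength and of the threshold of the lists in the difference by width were not tested.

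The match to the consensus also went with fate. Of the 198 peaks at 3′ ends with a match of 0 mismatches, 11 were lost (5.56%, 3.13% to 9.67%). With 1 mismatch 95 of 458 were lost (20.7%, 17.3% to 24.7%), with 2 mismatches 164 of 375 (43.7%, 38.8% to 48.8%), and with 3 or more 93 of 147 (63.3%, 55.2% to 70.6%). The same order held for other control peaks at higher levels, with 13.0% lost at 0 mismatches and 33.8% at 1. In the flanks, 1 to 10 kb from a 3′ end, 7.03% (5.71% to 8.63%) and 22.8% (21.3% to 24.5%) were lost, and these intervals overlap those at the 3′ ends. Peaks with a match were stronger, with a median fold enrichment of 36.6 against 26.6 for those without. Among peaks at 3′ ends of equal fold enrichment, the lost share was 16.6 points lower with a match of at most 1 mismatch than without (-16.6), and the difference without regard to fold was -33.1 points.

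**Figure D3:**
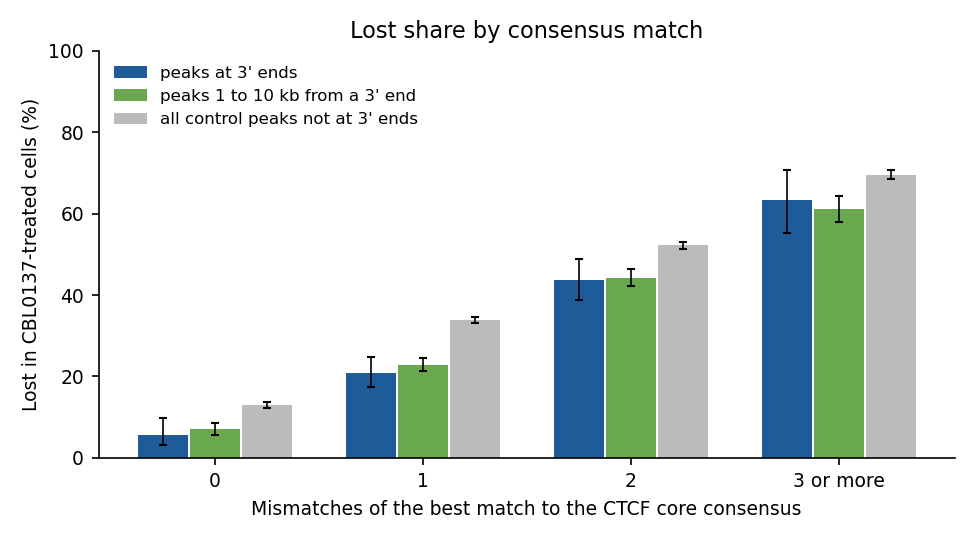
Lost share in percent (vertical axis) by the number of mismatches of the best match to the 12-base core of the CTCF consensus (horizontal axis), for peaks at 3′ ends, peaks 1 to 10 kb from a 3′ end and all control peaks that are not at 3′ ends; bars are Wilson 95% intervals. At 3′ ends the share rises from 5.56% at 0 mismatches to 63.3% at 3 or more.

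The motif has a direction, so its strand was compared with that of the gene. Among the 656 matches at 3′ ends, 355 lay on the strand of the gene (54.1%, 50.3% to 57.9%). Inside the gene 144 of 290 did (49.7%, 43.9% to 55.4%), and downstream of it 211 of 366 (57.7%, 52.5% to 62.6%). In the flanks 52.9% (51.3% to 54.5%) of the matches were on the strand of the gene with the nearest 3′ end. The lost shares by direction were close, at 14.9% (11.6% to 19.01%) on the strand of the gene and 17.6% (13.7% to 22.3%) on the other, with overlapping intervals. The matches lay at a median of 17 bp from the peak centre, with an upper quartile of 32 bp.

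By side, 532 of the peaks lay inside the gene whose 3′ end was nearest and 646 downstream of it. The downstream peaks were stronger, with a median fold enrichment of 34.6 against 29.5, and their lost shares were 31.7% (28.3% to 35.4%) downstream and 29.7% (26.0% to 33.7%) inside. Downstream minus inside, this was 2.03 points, and 5.31 points at equal fold enrichment. The order of these 2 shares turned when kept peaks had to share more than 50% of the larger peak, to 37.6% and 40.2%, and with the FDR limited to at most 1e-05. By annotation, 400 centres were in a 3′ untranslated region, 94 in a coding exon, 27 in another exon, 148 in an intron and 509 outside every protein-coding gene. The lost share was 31.8% (27.4% to 36.5%) in 3′ untranslated regions, 30.4% (23.6% to 38.2%) in introns and 33.0% (29.1% to 37.2%) outside genes, whose intervals overlap. Strength differed between these places, and at equal fold enrichment the difference from all other peaks at 3′ ends went from 1.42 to -5.55 points for 3′ untranslated regions, which turned its direction, and from 3.86 to 7.44 points outside genes. In coding exons it was 21.3% (14.2% to 30.6%), an interval that overlaps these, and the DNA there was richer in GC with a median of 62.2%. In other exons 3 of 27 were lost (11.1%, 3.85% to 28.1%). In the lowest of 4 groups of these peaks by GC content, below 44.2%, 46.3% (40.7% to 52.0%) were lost, and in the highest, from 58.6%, 16.2% (12.4% to 20.9%). The median fold enrichment in these groups was 26.5 and 38.5. The lost share of the highest group differed from that of the other 3 by -19.4 points, and by -6.90 points at equal fold enrichment. The highest group held 23 of the 30 peaks at sites higher in treated cells. This count was not set against other control peaks of like GC content. Such sites overlapped 6.22% of control peaks within 1 kb of a protein-coding start, where the median GC content was 60.8%. Over all control peaks the share was 2.41%. Some genes end close to a gene that runs the other way. At such convergent pairs, with 3′ ends on opposite strands at most 2 kb apart, 43 of 173 peaks were lost (24.9%, 19.01% to 31.8%), against 31.8% (29.0% to 34.8%) of the others, and the intervals overlap. The difference was -6.99 points, and -8.33 points at equal fold enrichment.

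**Figure D4:**
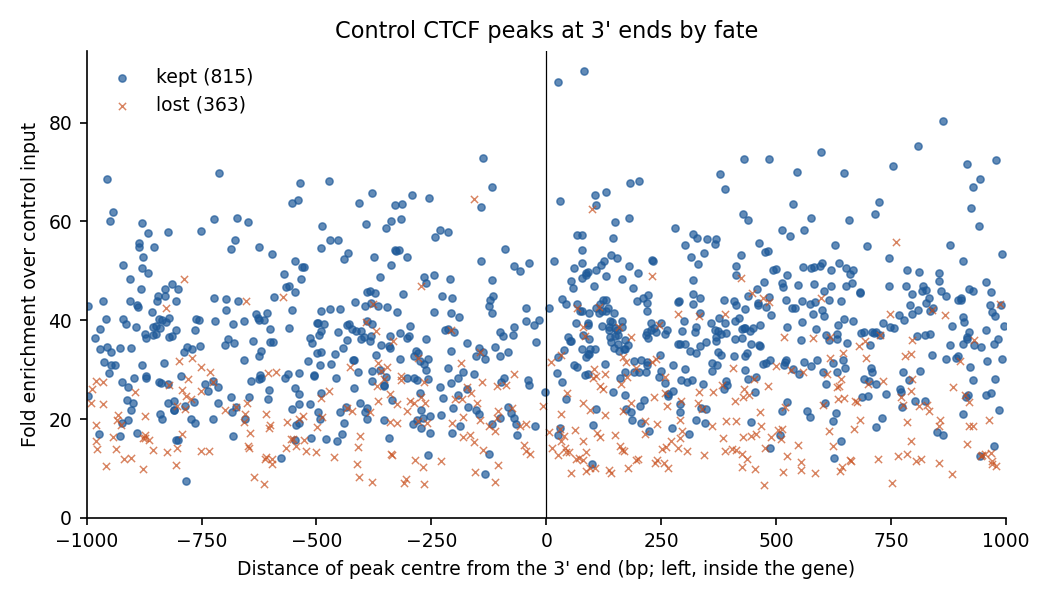
Fold enrichment over control input (vertical axis) of each of the 1178 control peaks at 3′ ends by distance of its centre from the 3′ end in bp (horizontal axis, negative inside the gene), with 815 kept and 363 lost peaks marked. Lost peaks lie mostly at low fold enrichment, at a median of 20.1 against 37.5 for kept peaks, on either side of the end.

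The strongest peaks at 3′ ends were kept. The highest fold enrichment over control input, 90.4, was found on chromosome 11 at 65341551 to 65341950, 82 bp beyond FAM89B and outside protein-coding genes. The treated list had a peak of 500 bp there with a fold enrichment of 46.5 over its own input. Because each list has its own input and scaling, ranks are compared in place of folds. The lists differ in length, with 47470 control and 29558 treated peaks. Kept peaks had a median control fold of 34.9, against 28.7 for all control peaks. A percentile can therefore fall without a change in binding, and over all kept peaks its median change was -9.21 points. The FAM89B peak stood at percentile 99.97 of the control list and 84.5 of the treated list. Next came ZNF341, a zinc-finger transcription factor, with a peak 26 bp beyond its end on chromosome 20 at 32379951 to 32380250 and a control fold of 88.2. ATP9B, of the family of P4-type ATPases, followed with a control fold of 80.2 at 864 bp beyond its end. SMIM24, a small membrane protein, had a control fold of 75.2 at 808 bp beyond its end, and its percentile went from 99.6 to 96.4.
The peak 598 bp beyond MRGPRG, a Mas-related receptor gene, had a control fold of 74.1 and fell from percentile 99.6 to 55.0, and it was the one of the 8 strongest at a site higher in control cells. RCC2, a regulator of chromosome segregation, had one of 72.7 at 430 bp beyond its end. For PPP1R3E, a subunit that directs protein phosphatase 1 to glycogen, the control fold was 72.6 and the percentile went from 99.4 to 98.4. All of the 8 strongest peaks had a partner in treated cells, with treated percentiles from 55.0 to 98.4.

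Among the lost peaks, the strongest were well inside the range of the kept ones, and each of the 8 named here overlapped a site higher in control cells. The highest control fold of these, 62.5, was on chromosome 16 at 75505701 to 75506000, 99 bp beyond CHST6, a sulfotransferase that acts on keratan sulfate in the cornea. On chromosome 9 at 95217601 to 95217850, 761 bp beyond ASPN, which codes for the matrix proteoglycan asporin, the control fold was 55.8. RGS7BP, whose product anchors regulators of G protein signalling, had a lost peak 230 bp beyond its end on chromosome 5 at 63908201 to 63908550 with a control fold of 48.9. CECR2, a bromodomain protein of chromatin remodelling complexes, had one with a control fold of 48.5 at 424 bp beyond its end. Inside the 3′ untranslated regions of ACBD6, an acyl-CoA-binding protein, MCRIP2 and DSE, which epimerises dermatan sulfate, the control folds of the lost peaks were 48.3, 46.9 and 44.8. PLA2G2A, a secreted phospholipase, lost a peak with a control fold of 45.5, 448 bp beyond its end. These peaks ranked from percentile 85.7 to 97.9 of the control list, in the 2 strongest of the 10 groups, where 10.6% and 3.03% of peaks at 3′ ends were lost.

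The kept peaks with the lowest control fold were narrow, at most 200 bp in control cells. The weakest lay in a coding exon of TNFRSF12A, the receptor of the cytokine TWEAK, on chromosome 16 at 3071551 to 3071650, at a convergent pair of ends, with a control fold of 7.40 at percentile 0.507 and a treated percentile of 26.6. SPACDR and SPATA48 followed with control folds of 8.90 and 10.96. In LRRC3 the control peak of 100 bp, with a fold of 12.1 at percentile 6.91, met a treated peak of 300 bp at percentile 48.8, and a site higher in treated cells overlapped it. DPM2, a subunit of dolichol-phosphate mannose synthase, and TGFBI, an extracellular matrix protein, had control folds of 12.1 and 12.4 and treated percentiles of 5.78 and 8.69. PTPN23, a tyrosine phosphatase family member, had a control fold of 12.8 and a treated percentile of 21.5. In TRAF2, an adaptor of tumour necrosis factor receptors, a control peak of 100 bp with a fold of 12.7 met a treated peak of 650 bp. That treated peak also covered another control peak of the same end at 139820301 to 139820450, whose control fold was 21.4, so that a pair of control peaks faced 1 treated peak. A site higher in treated cells overlapped the stronger of the pair. Of these 8 peaks, LRRC3 and TRAF2 held a consensus match with at most 1 mismatch.

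The widest peak at a 3′ end was that of ACTA2, the smooth muscle actin of myofibroblasts, on chromosome 10 at 90694551 to 90695550. It covered 1000 bp in both lists, with a control fold of 38.1 and percentiles of 74.0 and 76.1. RTN2, a reticulon of the endoplasmic reticulum, had a peak of 900 bp with a control fold of 58.6, and its percentile went from 96.6 to 51.1. TRAF4, another adaptor of its family, had a peak of 850 bp in control cells and 350 bp in treated cells and overlapped a site higher in control cells. C17orf50 had one of 850 bp, which was 950 bp in treated cells.

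Around the 1 kb limit, the peaks just inside belonged to RPL4, a ribosomal protein, at 998 bp and HEBP1, a haem-binding protein, at 997 bp, with control folds of 24.7 and 42.9. HEBP1 overlapped a site higher in control cells, and its percentile went from 82.9 to 2.13. Those just outside, both at 1002 bp, were nearest to CDIN1 and BCAS3, with control folds of 23.5 and 40.5. All 4 were kept.

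Kept peaks at 3′ ends were mostly narrower in treated cells. Their median width was 400 bp in control cells and 350 bp for the treated peaks they met, and 500 of the 815 were narrower (61.3%), 176 equal and 139 wider (17.1%). Over all kept control peaks 62.4% were narrower and 15.03% wider. The median change of percentile from the control list to the treated list was -9.35 points at 3′ ends and -9.21 points over all kept peaks, and 33.4% and 35.2% rose. These values were nearly the same at 3′ ends as over the whole list.

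The 1178 peaks belonged to 1157 genes by the nearest 3′ end, which is 5.74% of 20149 protein-coding gene names. In 21 genes the end held 2 peaks. In 10 of these both were kept, in 11 one was kept and the other lost, and in 0 were both lost. A control peak at the gene's own start was present for 305 of the genes (26.4%), which allowed the ends of a gene to be compared. In 284 of them each end had 1 fate. Of the 208 whose start peaks were kept, 62 lost the peak at the 3′ end (29.8%), and of the 76 whose start peaks were lost, 19 did (25%). The share was not higher where the start had lost its peak. No interval was computed for these shares and strength was not equalised, so a link between the ends of a gene was not tested.

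Gene groups contributed few peaks each. Among the ZNF zinc-finger genes, the largest family of transcription factors, 16 of 508 had a peak at the 3′ end (3.15%) and 4 of these were lost. After ZNF341, those with the highest control folds were ZNF772, with 71.1, and ZNF648, with 54.3, both kept, and the percentile of ZNF772 went from 99.3 to 36.0. Among the SLC genes, which code for membrane transporters, 24 of 367 had such a peak (6.54%), and 9 of the 25 peaks were lost. SLC4A3, SLC44A2 and SLC34A3 had the highest control folds, of 64.0, 53.7 and 51.3, and were kept. Of 86 genes for cytosolic ribosomal proteins 4 had a peak, namely RPS19, RPL22, RPL38 and RPL4, with control folds of 43.9, 40.2, 39.9 and 24.7, and 4 of 4 were kept. At RPL38 the percentile rose from 77.7 to 95.9, and at RPS19, which overlapped a site higher in control cells, it fell from 84.3 to 52.3.
For the subunits of oxidative phosphorylation, 6 of 87 genes had a peak and 2 were lost. COX6A1, of cytochrome c oxidase, had the highest control fold at 47.3, and ATP5F1D, of ATP synthase, went from percentile 86.5 to 97.7. Of 107 genes for collagens, laminins and matrix proteases, ADAMTS10 and the protease inhibitor TIMP2 had peaks, with control folds of 56.3 and 22.1, and both were kept. In the NF-κB list 3 of 32 genes had 4 peaks, of which 1 was lost. It was the peak 955 bp beyond IL6, the gene of the cytokine interleukin 6, on chromosome 7 at 22772451 to 22772700, with a control fold of 12.9 at percentile 8.69, and it overlapped a site higher in control cells. The peak beyond TAB1, an activator of the kinase TAK1, was kept with a control fold of 22.3. In the p53 list 3 of 25 genes had 1 peak each. FDXR, a mitochondrial reductase, kept its peak with a control fold of 43.3, and XPC, a sensor of DNA damage, lost one with a control fold of 14.2. The other peak of that list was kept.
Of 21 cleavage and polyadenylation factors, PAPOLA, the poly(A) polymerase, had a peak 373 bp beyond its end, with a control fold of 33.6, and it was kept. No peak at a 3′ end was found for the 24 genes listed for cohesin, condensin, CTCF and FACT or the 30 listed for the RAS-MAPK pathway. The same held for the 38 listed cyclins and cyclin-dependent kinases and the 64 listed replication-dependent histones. The cyclin list is not complete, and the cyclin genes CCNG2 and CCNP, which it leaves out, had peaks at their 3′ ends. Such absences depend on the rule as well. In a gene shorter than 1 kb, every base lies within 1 kb of its start, so a peak could count only downstream. The shortest gene with a peak was 721 bp, and the lengths of the listed genes were not examined. With so few peaks in a group, a count of lost peaks cannot be set apart from the 30.8% over all 3′ ends.

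Peaks at 3′ ends were found on 23 chromosomes. Among the 20 with at least 20 of them, the lost share ranged from 17.8% (11.6% to 26.4%) on chromosome 19, with 101 peaks, to 57.1% (36.5% to 75.5%) on chromosome 4, with 21, and the median was 32.4%. On 18 of these 20 chromosomes it was below that of the other control peaks of the same chromosome. The exceptions were chromosome 22, where 16 of 33 peaks were lost (48.5%, 32.5% to 64.8%) against 33.1% of other peaks, and chromosome 4, where other peaks were lost in 52.0% of cases.

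**Figure D5:**
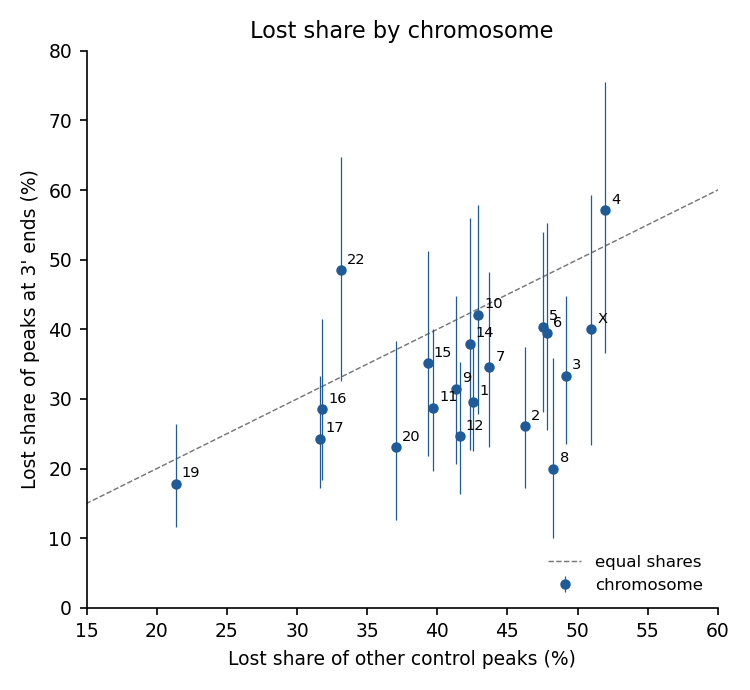
Lost share in percent of peaks at 3′ ends (vertical axis, with Wilson 95% intervals) against that of other control peaks (horizontal axis) for each of the 20 chromosomes with at least 20 peaks at 3′ ends; the dashed line marks equal shares. Points lie below the line on 18 chromosomes and above it on chromosomes 4 and 22.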

How the data were processed

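Reads were aligned by the authors to hg19 (Bowtie2 2.2.3), duplicates and multiply aligned reads were dropped (SAMtools 1.5), and peaks were called with PePr in windows of 100 bp at a p-value cutoff of 0.05. For each peak the deposited lists hold a ratio (the fold of ChIP against input), a p-value and its FDR, which the authors derived from both replicates together. No p-value in either list was above 1e-05, and the threshold that set the lists, on which kept and lost depend, is not given beyond the stated cutoff. The largest FDR was 0.00132 in the control list and 0.00221 in the treated list. Of the 2 deposited lists of differential sites the positions alone were used. Their folds and p-values, which hold the authors' own comparison, were not. Columns had no headings and were read in broadPeak order.

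Members, gene lists and comparisons were chosen with earlier results of these data known. No peak passed the end of a GRCh37 chromosome, and 26 control peaks on contigs absent from it were left out of sequence measures. Starts were those of 78577 protein-coding transcripts and ends those of 20176 gene records. Differences between sets of control peaks at equal fold or GC content were averaged over 20 groups. Differences among the peaks at 3′ ends at equal fold used 10 groups. For fold and GC content together, 10 groups of each were crossed. Named were the 8 strongest peaks, the 8 strongest lost, the 8 weakest kept, the 4 widest, up to 3 per gene list and those beside the 1 kb limit. Chromosome 8 was left out of the naming. Of the 8 strongest peaks, 1 is not reported here by name. Python 3.11.15, numpy 2.4.6, pandas 2.3.3, pysam 0.24.0 and samtools 1.23.1 were used, and the routines were tested on simulated data. Alternatives were other distances, annotations, thresholds and overlap rules.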

Additional observations from a re-analysis of the deposited data

How the results depend on the processing

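No paired analysis was possible because the lists combine the replicates of a condition, and no replicate was left out for the same reason. The number of peaks at 3′ ends, 1178, was 686 within 500 bp, 1938 within 2 kb and 2322 with the ends of every protein-coding transcript. Their lost share, 30.8%, was 38.8% when more than 50% of the larger peak had to be shared and 15.4% when the control list was cut to its strongest peaks, to the length of the treated list, and moved by less than its counting interval under the other 12 alternatives. The difference from other control peaks, -12.4 points, was -9.48 points with lists of equal length and -3.50 points at equal fold enrichment and GC content together. That setting and the strongest peak of each gene alone were chosen after seeing the data. At equal fold enrichment it was -6.73 points, and -9.82 points with the ends of every transcript. The difference from flank peaks, -1.38 points, was -5.00 points with the ends of every transcript. The lost share downstream minus that inside, 2.03 points, was -1.86 points with those ends, -3.09 points at an FDR of at most 1e-05 and -2.61 points with the rule of more than 50%. The share with a consensus match, 55.7%, was 16.8% with no mismatch and 87.5% with at most 2, where all control peaks gave 13.9% and 83.6%. Sites higher in control cells covered at least 50% of the peak in 34.9% of cases, against 40.1% by any overlap. No alternative turned the direction of the difference from other control peaks.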
